A study of Rattus norvegicus with 21 samples.

Results

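Fos, Jun, Junb, Egr1 and Nr4a1 are immediate early genes that code for transcription factors, and their messenger RNA was followed in rat PC12 cells given extracts of a herbal formula. The 5 genes were matched by their Ensembl gene IDs, each to exactly 1 of the 32883 IDs in the count tables. They were ENSRNOG00000008015 (Fos), ENSRNOG00000026293 (Jun), ENSRNOG00000042838 (Junb), ENSRNOG00000019422 (Egr1) and ENSRNOG00000007607 (Nr4a1). The pairing of these IDs with symbols came with the choice of genes, because the tables list IDs alone. All 5 passed the filter on low counts that left 13550 genes for testing, and their expected counts were whole numbers in all 21 libraries.

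PC12 is a cell line from a rat adrenal pheochromocytoma, labelled here as a neuronal cell, and it is a standard model for signals that act through nerve growth factor and calcium. The 21 libraries formed 7 groups of 3. One group received vehicle, which the labels also call untreated. The others received Jakyakgamcho-tang (JGT), a formula of peony and licorice root, as a water or an ethanol extract at 4 µg/mL (low dose), 20 µg/mL (medium) or 100 µg/mL (high). The labels give no duration of exposure, and nothing in them ties replicates to separate cultures. The p-values therefore reflect only how far these libraries differ, and that spread may be technical. In RNA from whole cultures, fewer cells that express a gene and less of its RNA per cell cannot be told apart. The defining genes of PC12 cells and of other cell types could not be checked, because the IDs carry no symbols.

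Immediate early genes are switched on by existing transcription factors, without new protein, within minutes of a stimulus, and their short-lived messenger RNA falls again soon after. Fos, Jun and Junb code for leucine zipper proteins that pair into the AP-1 complex. Fos needs a Jun family partner to bind DNA, while Jun can also pair with itself, and Junb is often a weaker activator that competes with Jun. Egr1 codes for a zinc finger protein that binds GC-rich sites, and Nr4a1 (Nur77, NGFI-B) for an orphan nuclear receptor; both were identified as genes induced by nerve growth factor in PC12 cells.

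Of the 5 genes, 3 (Junb, Egr1 and Nr4a1) had an entry in the RefSeq promoter table (GRCr8 build). The 250 bases before the annotated start are shown for Egr1 and Nr4a1 because both differed between the extracts. Capitals mark the motifs found on either strand: the short core TGACG of the cAMP response element, which reads CGTCA on the opposite strand, the serum response element core, and the Egr site. The Egr1 window lies at chr18:26736828-26737077 and the Nr4a1 window at chr7:134259888-134260137, both on the plus strand.
Egr1: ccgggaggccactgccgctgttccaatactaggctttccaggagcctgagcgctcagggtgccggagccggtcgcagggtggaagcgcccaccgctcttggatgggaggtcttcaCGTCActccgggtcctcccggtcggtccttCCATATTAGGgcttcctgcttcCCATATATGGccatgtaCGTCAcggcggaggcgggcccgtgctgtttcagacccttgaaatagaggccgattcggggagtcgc
Nr4a1: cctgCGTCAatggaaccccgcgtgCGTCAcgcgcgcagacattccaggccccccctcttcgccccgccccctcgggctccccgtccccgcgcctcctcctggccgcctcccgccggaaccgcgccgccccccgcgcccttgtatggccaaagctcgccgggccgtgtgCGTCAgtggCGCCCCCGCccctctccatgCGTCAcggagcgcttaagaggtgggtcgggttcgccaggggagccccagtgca

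The Egr1 window held 2 serum response element cores, which begin 105 and 83 bases before the start, and 2 short cAMP cores, at 135 and 66 bases. At least 2 serum response cores stood in 7 of 33469 windows of the same length (0.0209%), and at least 1 in 1.5%. The Nr4a1 window held 4 short cAMP cores, at 246, 226, 82 and 53 bases before the start, and 1 Egr site (GCGGGGGCG, or GCGTGGGCG as the other form searched) at 73 bases. At least 4 short cores stood in 0.0896% of windows, at least 1 in 18.2%, and an Egr site in 2.85%. The Junb window, not shown, held 1 short core at 155 bases. None of the 3 windows held the full cAMP element TGACGTCA (1.59% of all windows), an AP-1 site TGACTCA or TGAGTCA (4.05%), or the AAAGGTCA site of the Nr4a family (1.24%). The short core lies inside the full element and was added to the search after the windows had been seen. The cut-offs of at least 2 and at least 4 equal the numbers found in the Egr1 and Nr4a1 windows and were not fixed beforehand. Both windows are also among those counted, so these shares describe the windows and test nothing. These are matches of letters, and binding was not measured.

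Levels that allow for gene length (TPM, a share of all transcripts scaled to a fixed total) put Junb and Jun far above the others. Over the 21 libraries Junb averaged 104 TPM and Jun 89.9 TPM, above 88.8 and 87.1% of the genes tested. Egr1 averaged 29.1 TPM, above 65.2% of genes, Nr4a1 6.55 TPM (31.4%) and Fos 4.84 TPM (26.4%). The order Junb, Jun, Egr1, Nr4a1, Fos held in 16 of 21 libraries, Fos stood above Nr4a1 in 3 and Jun above Junb in 2. The Jun and Junb ranges overlapped, at 76.9 to 143 and 84.1 to 162 TPM, as did those of Nr4a1 and Fos, at 3.94 to 10.3 and 2.41 to 6.98 TPM.

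All other levels are CPM, counts relative to the scaled library total, which compare 1 gene between libraries. Total expected counts were 8344416 to 28420922 per library. They were 19918513 to 23781470 in vehicle, 18398186 to 28420922 with water and 8344416 to 23528245 with ethanol extract. Fragments were 221.7 to 233.5, 216.6 to 240.8 and 178.7 to 231.1 bases long in the same order. Ethanol libraries thus tended to be shallower and their fragments shorter, with overlap, and the part of depth in the comparisons of extracts was not tested. A set of 3 ethanol libraries, namely replicate 1 of the low dose and replicates 2 and 3 of the medium dose, stood apart from the other 18. Over genes, the median distance from the middle library was 0.207 to 0.34 log2 units in them, against 0.052 to 0.158. Their fragments were 178.7 to 202.5 bases long, against 205.3 to 240.8, and their totals were 8344416 to 14918515, against 15005249 to 28420922. Since all libraries share 1 model, calls are also given from the other 18, where the medium-dose ethanol group is 1 library whose spread is assumed to be that of the other groups. A gene was called at an adjusted p under 0.05 in the quasi-likelihood test of edgeR, adjusted by Benjamini-Hochberg over all genes tested, and adjusted p-values are from this test unless another is named.

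**Figure D1:**
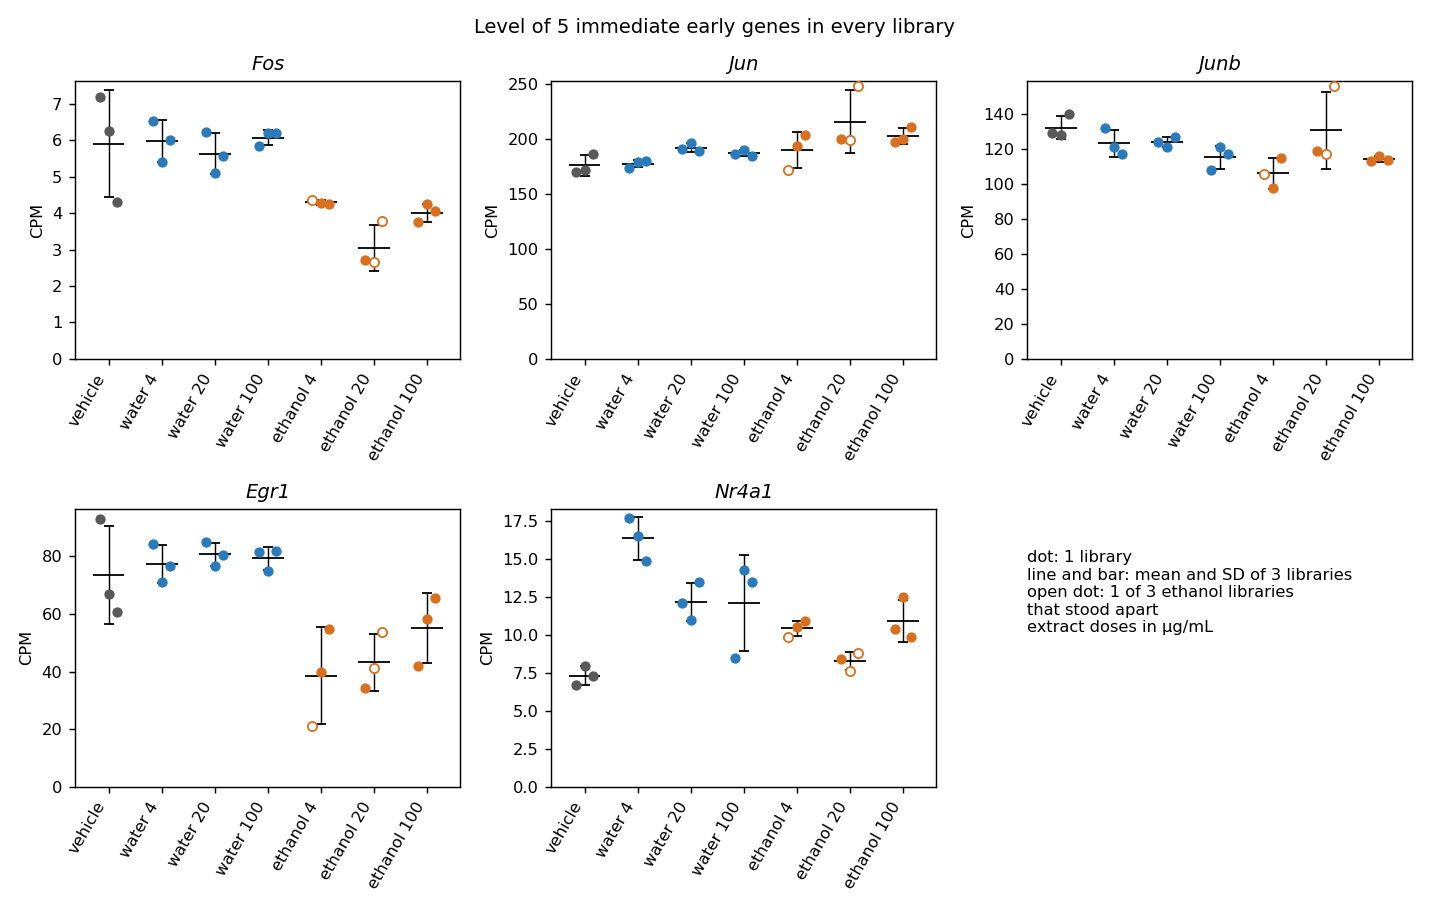
Level of each gene in CPM (vertical axes from 0) in the 7 groups, with 1 dot per library and a line and bar for mean and SD (n = 3); open dots are the 3 ethanol libraries that stood apart. All 9 ethanol libraries lie below all 9 water libraries for Fos (at most 4.37 against at least 5.09 CPM) and Egr1 (at most 65.5 against at least 71.3 CPM), and Nr4a1 is highest with 4 µg/mL of water extract. How many of all genes separate the extracts fully was not counted.

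Fos was lower with ethanol than with water extract. The vehicle libraries stood at 7.17, 6.25 and 4.3 CPM. With water extract Fos stood at 6.52, 5.39 and 6.01 CPM at the low dose, 6.22, 5.09 and 5.57 CPM at the medium dose and 5.83, 6.19 and 6.19 CPM at the high dose. With ethanol extract it stood at 4.37, 4.27 and 4.25 CPM at the low dose, 2.72, 2.65 and 3.77 CPM at the medium dose and 3.75, 4.24 and 4.05 CPM at the high dose. No ethanol library reached the lowest water library, while vehicle replicate 3 lay inside the ethanol range.

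These Fos levels rest on 32 to 94 counts per ethanol library and 108 to 181 per water library. The exact 95% Poisson interval of the lowest library (medium-dose ethanol replicate 2) was 1.81 to 3.74 CPM, and that of the lowest water library 4.28 to 6.01 CPM; such intervals cover counting error only. Averaged over the 3 doses, the log2 difference of ethanol from water was -0.65 ± 0.0948 (SE, adjusted p = 0.00144), or 0.638 times the water level. With 18 libraries it was -0.71 ± 0.109 (adjusted p = 5.54e-05). The call held in each alternative run, with adjusted p from 7.3e-07 to 0.00581.

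Egr1 showed the same direction, with wider spread than Fos among the ethanol libraries. Over those 9 libraries its coefficient of variation was 29.9%, against 17.5% for Fos. In vehicle it was 23.2 against 24.8%, and over the 9 water libraries 5.78 against 7.82%. Vehicle libraries stood at 93, 66.9 and 60.8 CPM. The 9 water libraries lay between 71.3 and 84.9 CPM with a median of 80.5. The ethanol libraries stood at 21, 40 and 54.7 CPM at the low dose, 34.4, 41.4 and 53.8 CPM at the medium dose and 41.8, 58.1 and 65.5 CPM at the high dose. All 9 were below all 9 water libraries, and 1 of them (high-dose replicate 3) lay within the vehicle range. How many of all genes tested separate the extracts fully, as Fos and Egr1 did, was not counted.

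Averaged over doses, the log2 difference of Egr1 between ethanol and water was -0.80 ± 0.143 (SE, adjusted p = 0.00536), or 0.574 times the water level. It was -0.81 ± 0.136 with 18 libraries (adjusted p = 0.00148), and passed in each alternative run, with adjusted p between 2.14e-06 and 0.0145. Among the 9 ethanol libraries Egr1 moved with sequencing depth: Pearson's r between its log2 CPM and the log2 total count was 0.85 (exact permutation p = 0.00925, two-sided, n = 9) and Spearman's rho 0.80 (exact permutation p = 0.0138). Over the 20 relations of this kind computed, these came to adjusted p = 0.185 and 0.276 by exact permutation test. Without the 2 libraries farthest from the median depth r was 0.69, and in the 9 water libraries r was -0.42. The part of depth in the difference between extracts was not tested.

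The mean of Nr4a1 was higher than in vehicle in each extract group and highest with the low dose of water extract. Medium-dose ethanol overlapped with vehicle, and edgeR with 21 libraries called only low-dose water and high-dose ethanol against vehicle. Vehicle libraries stood at 6.69, 7.96 and 7.28 CPM. With water extract Nr4a1 stood at 17.7, 16.5 and 14.9 CPM at the low dose, 12.1, 11 and 13.5 CPM at the medium dose and 8.47, 14.3 and 13.5 CPM at the high dose. With ethanol extract it stood at 9.89, 10.5 and 10.9 CPM at the low dose, 8.43, 7.62 and 8.78 CPM at the medium dose and 10.4, 12.5 and 9.87 CPM at the high dose. All libraries but medium-dose ethanol replicate 2 lay above the highest vehicle library, with medium-dose ethanol replicate 1 and high-dose water replicate 1 nearest to it.

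By group mean, Nr4a1 ran from 16.4 ± 1.41 CPM (SD, n = 3) at the low dose of water extract through 12.2 ± 1.3 at the medium and 12.1 ± 3.16 at the high dose. It was 10.9 ± 1.37, 10.4 ± 0.515 and 8.27 ± 0.592 CPM (SD, n = 3 each) at the high, low and medium doses of ethanol extract and 7.31 ± 0.632 in vehicle. The low-dose water libraries overlapped with no other group. The medium- and high-dose water groups overlapped with each other and the high-dose one with all 3 ethanol groups, the medium-dose one with high-dose ethanol; medium-dose ethanol overlapped with vehicle. Between high and low dose of water extract the log2 difference was -0.43 ± 0.147 (SE), with an unadjusted p of 0.00846 and an adjusted p of 1. Between ethanol and water the log2 difference of Nr4a1 was -0.64, -0.56 and -0.16 at the low, medium and high doses, with overlap at the high dose. In the averaged comparison of ethanol with water Nr4a1 was lower by a log2 difference of -0.45 ± 0.0882 (adjusted p = 0.0066), and 2 of 9 ethanol libraries lay below all water libraries. With 18 libraries the adjusted p was 0.0092, and with fragment length as a covariate as well the log2 difference was -0.38 and the adjusted p 0.0545, which ended the call.

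Jun and Junb varied less. Jun stood between 170 and 187 CPM in vehicle, 174 and 197 CPM with water and 172 and 249 CPM with ethanol extract, where the medians were 172, 187 and 200 CPM. Junb stood between 128 and 140 CPM in vehicle, 108 and 132 CPM with water and 97.5 and 156 CPM with ethanol extract, with medians of 129, 121 and 115 CPM. The highest library of both genes was medium-dose ethanol replicate 3, 1 of the 3 that stood apart. Averaged over doses, the ethanol minus water difference was 0.13 ± 0.0465 for Jun (SE, adjusted p = 0.0853) and -0.05 ± 0.0534 for Junb (adjusted p = 0.543) on the log2 scale. With 18 libraries Jun passed, at 0.11 ± 0.0307 (adjusted p = 0.00885).

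In total 3 of the 5 genes (Fos, Egr1 and Nr4a1, all lower) were called in the averaged comparison of ethanol with water, against 9.28% of all genes tested, and 4 with 18 libraries (Jun higher), against 20.9%. The median log2 difference of all 5 genes, with 21 libraries, was -0.45, against -0.001 over all genes tested. Dose by dose, the 3 genes were called at the medium dose, with log2 differences of -0.87 ± 0.17 for Fos (adjusted p = 0.0178), -0.90 ± 0.249 for Egr1 (adjusted p = 0.0412) and -0.56 ± 0.156 for Nr4a1 (adjusted p = 0.0405), against 7.34% of genes. Without any 1 of the 3 medium-dose water libraries 0 of the 5 genes were called by edgeR, though the log2 differences stayed at -0.94 to -0.80 for Fos, -0.94 to -0.86 for Egr1 and -0.63 to -0.48 for Nr4a1. Without ethanol replicate 2 or 3, Fos alone was called, and without ethanol replicate 1 Jun was called as well as the 3 genes. With 18 libraries Fos and Egr1 were called (adjusted p = 0.00344 and 0.0146), against 18% of genes.

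At the low dose 0 of the 5 genes were called between extracts by edgeR, against 0.0221% of genes. An unadjusted p under 0.05 was reached by 4 of the 5, against 725 of 13550 genes. DESeq2 called 2 (Egr1 and Nr4a1, adjusted p = 0.0275 and 0.0461), against 29 genes. The log2 differences were -0.48 ± 0.163 for Fos, -0.98 ± 0.249 for Egr1, -0.64 ± 0.152 for Nr4a1 and -0.22 ± 0.0927 for Junb (SE). For each of these genes the 3 ethanol libraries lay below the 3 water libraries, and how many of all genes separate in this way was not counted. At the high dose 0 were called by edgeR, against 0.0443% of genes. There were 2 at an unadjusted p under 0.05, against 1407 of 13550 genes, and 0 called by DESeq2, against 157 genes. Nr4a1 differed there by -0.16 ± 0.15 (SE, edgeR adjusted p = 0.784), and its ethanol and water libraries overlapped. With 18 libraries Fos was called there (-0.59 ± 0.146, adjusted p = 0.0111), against 11.3% of genes.

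**Figure D2:**
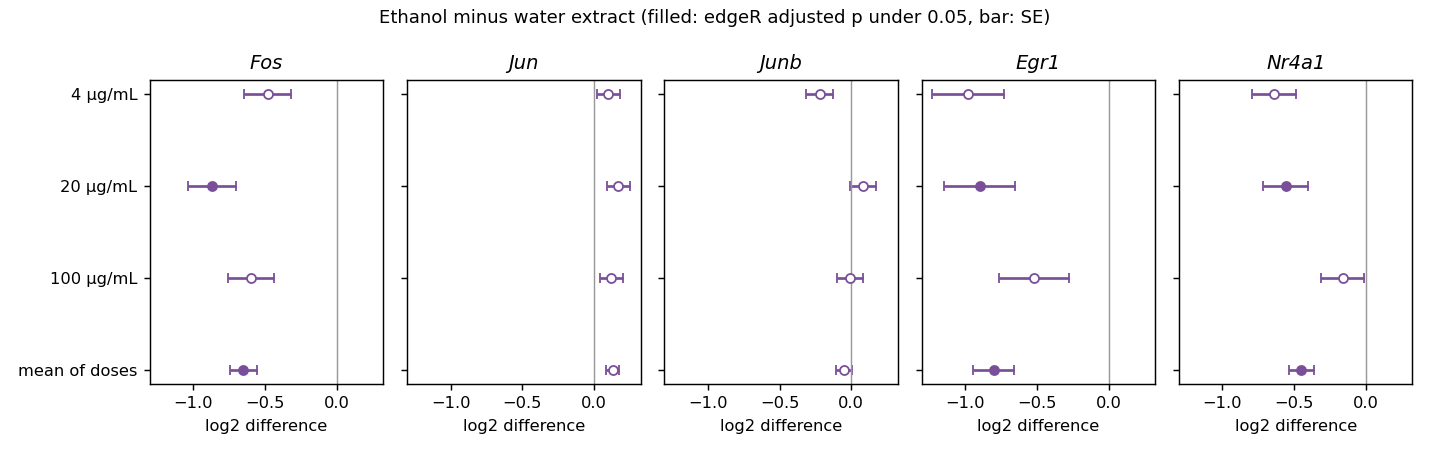
Log2 difference of ethanol from water extract (horizontal axis) for each gene at each dose and averaged over doses (rows), with SE as bars; filled points have an edgeR adjusted p under 0.05. Fos and Egr1 lie left of 0 in every row, from -0.48 to -0.87 and from -0.52 to -0.98 at single doses, while Jun stays between 0.10 and 0.17.

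Each extract was also set against the same 3 vehicle libraries, so these comparisons share their controls. In cells given the water extract, the low dose called 1 of the 5 genes, against 0.369% of all genes. This was Nr4a1, whose log2 change was 1.16 ± 0.152 (SE, adjusted p = 0.00201), or 2.24 times vehicle, with adjusted p from 4.67e-09 to 0.0258 over the alternatives; with 18 libraries it was again the 1 gene called, against 10.5%. At the medium and high doses its log2 changes were 0.74 ± 0.153 and 0.73 ± 0.153 (adjusted p = 0.239 and 0.0949). No gene of the 5 was called by edgeR at either dose, against 0.00738 and 0.0664% of all genes. At an unadjusted p under 0.05 there were 1 and 2 of the 5, against 424 and 892 of 13550 genes. DESeq2 called Nr4a1 at both doses (adjusted p = 0.0151 and 0.00476), against 8 and 69 genes. Without replicate 1 of the high dose the log2 change of Nr4a1 there was 0.93 and edgeR called it (adjusted p = 0.00407). Without any other single library of that comparison it was 0.59 to 0.8 and edgeR did not call it (adjusted p = 0.21 to 0.543). With 18 libraries Nr4a1 was called at the high dose (adjusted p = 0.0132), against 4.33% of genes.

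Fos and Egr1 did not pass at any dose of water extract, with log2 changes from -0.08 to 0.03 (SE 0.154 to 0.155) and from 0.07 to 0.13 (SE 0.243). Their water and vehicle libraries overlapped at each dose. Jun and Junb did not pass either, with log2 changes of 0.01 to 0.13 and -0.2 to -0.09.

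With ethanol extract, Fos fell at the medium dose by 0.95 on the log2 scale (SE 0.17, adjusted p = 0.00535), to 0.517 times vehicle. Its log2 changes at the low and high doses were -0.47 ± 0.164 and -0.56 ± 0.16 (adjusted p = 0.135 and 0.0568), and the high-dose value passed with DESeq2 (adjusted p = 0.0301), with 18 libraries (adjusted p = 0.00727) and without vehicle replicate 3 (adjusted p = 0.0185). Jun rose at the medium dose, by 0.29 ± 0.0806 (SE, adjusted p = 0.0267), a call lost without any 1 vehicle library or without ethanol replicate 3 (adjusted p up to 0.148). These 2 were the medium-dose calls, against 13.3% of all genes.

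Nr4a1 rose at the high dose of ethanol extract, by 0.57 ± 0.155 (SE, adjusted p = 0.0424), the 1 gene of the 5 called there, against 3.92% of all genes. Leaving out any 1 of the 6 libraries compared ended this call (adjusted p = 0.0523 to 0.228), with log2 changes of 0.47 to 0.64. Its low- and medium-dose changes were 0.52 ± 0.158 and 0.18 ± 0.161 (adjusted p = 0.0832 and 0.447). Egr1 had log2 changes of -0.91 ± 0.249, -0.77 ± 0.249 and -0.41 ± 0.245 at the low, medium and high doses and did not pass (adjusted p = 0.0624, 0.0507 and 0.421). DESeq2 called the low and medium doses (adjusted p = 0.00708 and 0.0146). Without low-dose ethanol replicate 1, the library at 21 CPM, and the other 2 that stood apart, the low-dose Egr1 change was -0.63 ± 0.212 (adjusted p = 0.0883). Junb had changes of -0.32 ± 0.0928, -0.02 ± 0.0925 and -0.21 ± 0.0924 and did not pass in edgeR with 21 libraries (adjusted p = 0.0728, 0.913 and 0.237). DESeq2 on the same libraries called Junb at the low dose (-0.32, adjusted p = 0.0276).

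At the low dose of ethanol extract 0 of the 5 genes were therefore called by edgeR, against 2.59% of all genes. An unadjusted p under 0.05 was reached by 4 of the 5, against 2403 of 13550 genes. DESeq2 called 3 (Junb, Egr1 and Nr4a1), against 725 genes. With 18 libraries 2 were called at the low dose (Jun higher, Junb lower), against 9.7% of genes. At the medium dose 3 were called (Jun higher, Fos and Egr1 lower), against 24.9%, and at the high dose 4 (Jun and Nr4a1 higher, Fos and Junb lower), against 22.7%. The Jun change at the high dose was 0.20 ± 0.0447 and that of Junb -0.21 ± 0.0574 in that fit (adjusted p = 0.00182 and 0.0103).

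**Figure D3:**
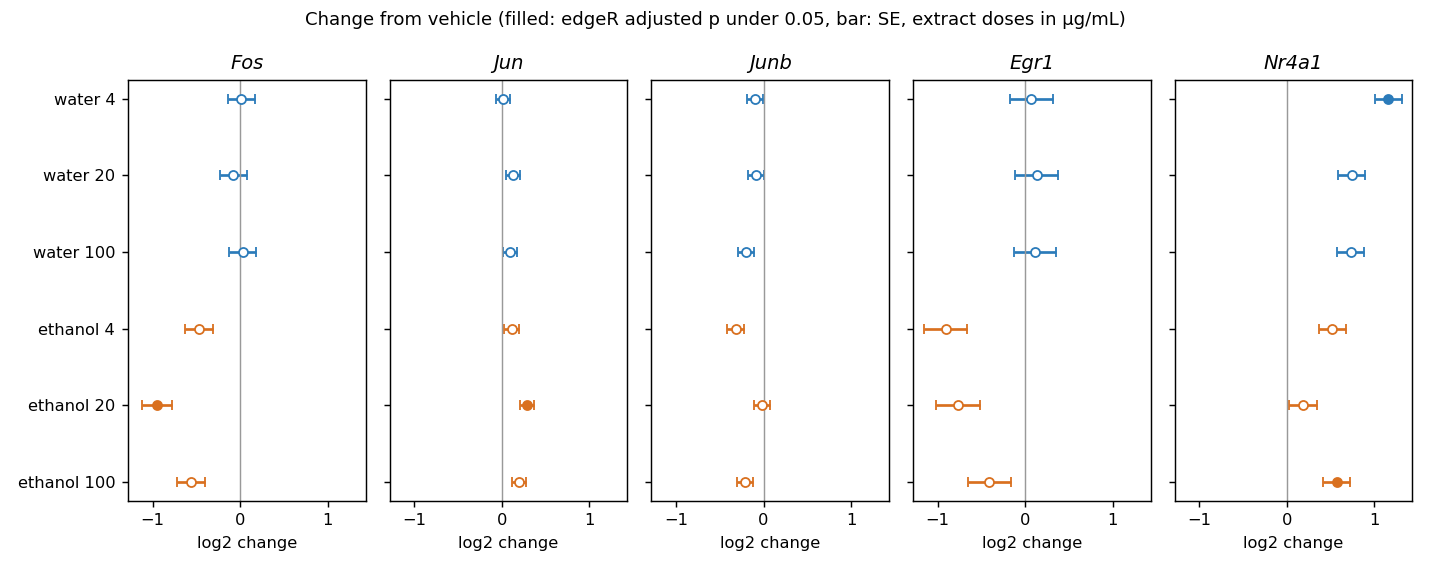
Log2 change from vehicle (horizontal axis) of each gene in the 6 extract groups (rows), with SE as bars; filled points have an edgeR adjusted p under 0.05. Nr4a1 lies right of 0 in all 6 rows and furthest at 4 µg/mL of water extract (1.16), while Fos and Egr1 lie left of 0 in the 3 ethanol rows and within 0.13 of 0 in the water rows.

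High and low dose were compared within each extract. By edgeR 0 of the 5 genes were called in either extract, against 0% of all genes (494 of 13550 at an unadjusted p under 0.05) for water and 0.00738% for ethanol. At an unadjusted p under 0.05 there was 1 gene of the 5, Nr4a1, for water and 0 for ethanol (650 of 13550 over all genes). DESeq2 called 0 of the 5 in both, against 11 genes for water and 25 for ethanol. Egr1 was higher at the high than at the low dose of ethanol extract by 0.49 ± 0.249 on the log2 scale (SE, adjusted p = 1). The difference of this dose effect between extracts was 0.45 ± 0.347 for Egr1 and 0.49 ± 0.214 for Nr4a1 (adjusted p = 1 for each).

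Ratios within a library do not depend on how libraries are scaled, and they show how Fos and Egr1 stood to Jun. Fos TPM was 4.84 to 8.86% of Jun TPM in vehicle, 5.45 to 7.87% with water and 2.77 to 5.27% with ethanol extract. The 9 ethanol and 9 water libraries did not overlap, and vehicle overlapped with both. Egr1 TPM was 32 to 54% of Jun TPM in vehicle, 38.4 to 47.8% with water and 12.1 to 30.7% with ethanol extract. By this ratio each ethanol library lay below each vehicle and water library. Jun is part of the ratio, and its TPM averaged 79.4 in vehicle, 83.7 with water and 99.7 with ethanol extract. Egr1 TPM alone overlapped between ethanol extract (up to 30.4) and vehicle (from 26.4). How many ratios of other genes separate in this way was not counted. Jun TPM was 71.7 to 73.2% of Junb TPM in vehicle, 71.7 to 94.7% with water and 88.1 to 109% with ethanol extract, where the last 2 overlapped.

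**Figure D4:**
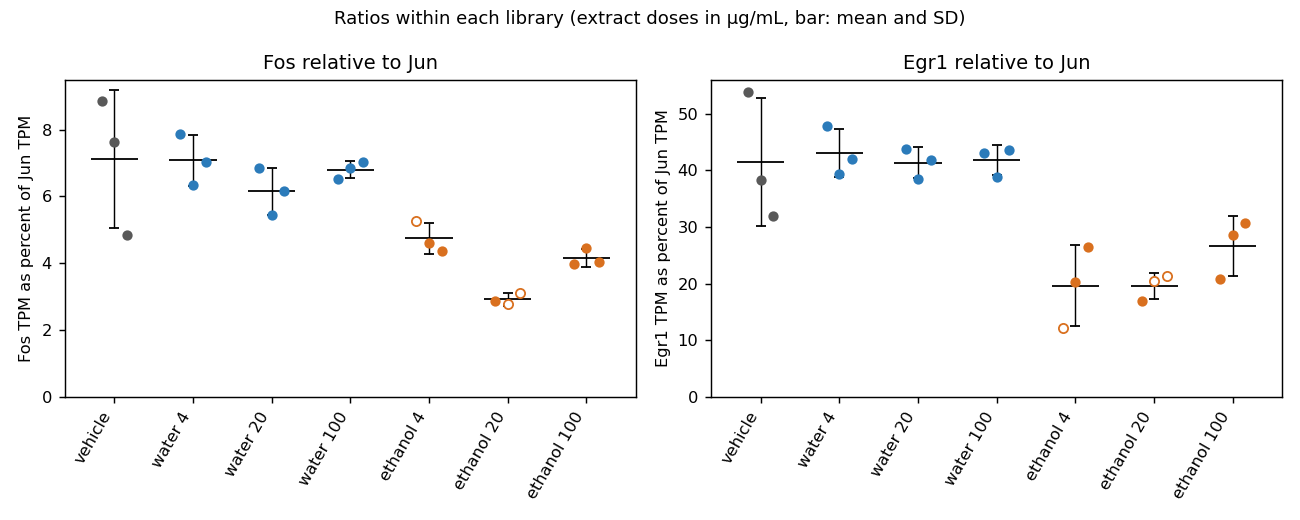
Fos (left) and Egr1 (right) TPM as a percent of Jun TPM in the same library (vertical axes from 0), with 1 dot per library and mean and SD per group (n = 3); open dots are the 3 ethanol libraries that stood apart. Egr1 stays at or below 30.7% of Jun in the ethanol libraries and at or above 32% in all others. Jun TPM itself averaged 99.7 with ethanol extract, against 79.4 in vehicle.

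Libraries of 1 group differed more in Egr1 than in genes of like level. Its coefficient of variation was 23.2% in vehicle and 43.7, 22.6 and 22% at the low, medium and high doses of ethanol extract, against medians of 3.85, 6.85, 15.9 and 4.49% over the 200 tested genes nearest in level. With water extract it was 5.03 to 8.4%. Within each of the 3 ethanol doses replicate 1 had the lowest and replicate 3 the highest Egr1 level. Total counts ran in the same order at the low and high doses but not at the medium dose. This order was seen after the fact and was not counted over all genes. Fos varied by 24.8% in vehicle, where counting error alone gives about 9.09%, and by 1.45 to 20.6% elsewhere. It lay below counting error at high water (3.42 against 8.56%), low ethanol (1.45 against 12.9%) and high ethanol (6.08 against 11.2%). In the remaining groups it lay above, at 9.47 against 7.99% (low water), 10.1 against 8.44% (medium water) and 20.6 against 15.7% (medium ethanol). For Nr4a1 the highest value was 26.2%, at the high dose of water extract.

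Deviations from the group mean were compared between genes over the 21 libraries, with libraries permuted within their group and 10 pairs of genes tested. Fos and Egr1 had a Pearson r of 0.45 (permutation p = 0.0266, adjusted p = 0.133) and a Spearman rho of 0.52 (permutation p = 0.0375, adjusted p = 0.188). Without the 2 libraries farthest from the median of Fos r was 0.35. Junb and Nr4a1 had r = 0.47 (permutation p = 0.00643, adjusted p = 0.0643) and rho = 0.53 (permutation p = 0.0109, adjusted p = 0.109), with r = 0.50 without the 2 farthest libraries. None of the 10 pairs passed in this permutation test after adjustment. Over all 21 libraries, with the differences between groups left in, Egr1 had r = 0.74 with Fos in log2 CPM and stood at rank 22 of 10322 genes of at least 5 CPM by that measure, where the highest r was 0.84. Jun had r = -0.59 with Fos, at rank 10007. The genes above Egr1 in that order carry no symbol in the tables and are not named.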

How the data were processed

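PC12 messenger RNA libraries (21, in 7 groups of 3) were made with a directional kit, per the labels' protocols. The authors deposited expected counts per gene as RSEM gives them, not normalized, with TPM and with gene and effective lengths in bases (other units), per the file headers. The version was RSEM 1.3.3, per the submitters' processing notes. Not given in the sources used here were the aligner version, build, annotation and strand setting. Of 32883 IDs, 0 paired with a symbol in the reference table, so the lists of other early genes, regulators, targets and cell type markers, and the rule naming other genes, could not be applied; only the 5 genes are named. Genes, lists and comparisons were chosen with earlier results of these data known.

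Counts were rounded and tested with edgeR 4.0.16 in R 4.3.3 (default low-count filter, TMM, robust quasi-likelihood fit, 1 coefficient per group, 21 libraries, 12 comparisons), which was tested on simulated data. SE is the absolute log2 change over the square root of F, and a prior count of 2 entered log2 CPM. Alternatives were DESeq2 1.42.0, its size factors in edgeR, no filter, the replicate number as a block, 18 libraries and leaving out each library. Fragment length as a covariate with 18 libraries was added after the data were seen. Fragment length was estimated as the median gap between gene length and effective length among genes of 1000 bases or more. Same-numbered libraries deviated together (r over 0.1 in each pair) only between the high and low doses of ethanol extract (r = 0.16 to 0.25), and the labels give no source for a pairing. Each of the 21 pairs of libraries within a group differed beyond sampling noise (chi-square over degrees of freedom from 3.06 to 148).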

Additional observations from a re-analysis of the deposited data

How the results depend on the processing

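The log2 changes of the 5 genes in the 12 comparisons (60 values) kept direction and side of the threshold in 60 cases with DESeq2 size factors, 60 with the replicate block (1 gene called at the low dose of water extract, as without it; every other count of calls was also as without the block), 58 without a low-count filter, 50 with DESeq2, 49 with 18 libraries and 46 with fragment length as well, and in 374 of 420 fits without 1 library. The number of the 5 genes called moved as follows, first where it moved by over 1.5 times. Against vehicle, DESeq2 gave 1, 1, 3 and 2 for medium and high water and low and high ethanol; 18 libraries gave 1, 2 and 4 for high water, low ethanol and high ethanol, and 1, 1 and 4 with fragment length; no filter gave 0 for high ethanol. For ethanol against water, DESeq2 gave 2 at the low dose and 18 libraries gave 1 at the high dose, with and without fragment length. Smaller moves were from 2 to 3 for medium ethanol (DESeq2, and 18 libraries with and without fragment length), from 3 to 4 for ethanol against water averaged over doses (DESeq2 and 18 libraries) and from 3 to 2 at its medium dose (no filter, and 18 libraries with and without fragment length). Without 1 library the counts ran from 0 to 1 (high water), 0 to 2 (low ethanol), 1 to 2 (medium ethanol), 0 to 1 (high ethanol) and 0 to 4 (ethanol against water, medium dose). Of the 13550 genes tested, DESeq2 called 8 and 69 for medium and high water. It called 725, 2564 and 798 for low, medium and high ethanol, all against vehicle. For ethanol against water it called 29 at the low dose and 1956 averaged over doses. The causes of the moves were not tested.

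Values that changed sign had not been called. Without 1 library, the log2 change from vehicle ran from -0.17 to 0.17, -0.26 to 0.09 and -0.14 to 0.20 for Fos at low, medium and high water, -0.05 to 0.28 and -0.01 to 0.31 for Egr1 at low and high water, -0.02 to 0.05 for Jun at low water and -0.16 to 0.05 for Junb at medium ethanol. Ethanol minus water for Junb ran from -0.07 to 0.15 at the medium dose (-0.06 with 18 libraries, -0.04 with fragment length) and -0.06 to 0.02 at the high dose. High minus low dose ran from -0.05 to 0.09 (Fos, water), -0.02 to 0.10 (Egr1, water) and -0.05 to 0.12 (Nr4a1, ethanol); with fragment length these were -0.02 for Fos in water, 0.02 for Fos in ethanol and -0.05 for Nr4a1. Some correlations of deviations turned with 18 libraries (n = 17, since the lone medium-dose ethanol library has no deviation). For Fos and Jun r turned from 0.12 to -0.71 (adjusted p = 0.169 by permutation test). Without the 2 farthest libraries that r was -0.35, for which no p was computed. The others turned to -0.12 (Fos and Junb, from 0.35), -0.06 (Jun and Egr1, from 0.58), -0.16 (Jun and Nr4a1, from 0.11) and -0.09 (Egr1 and Nr4a1, from 0.07). Fos had the fewest counts (32 to 181 per library), which limits what its single libraries can show, while Egr1 had the larger SE (0.243 to 0.249 against vehicle, and 0.154 to 0.17 for Fos).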
